A study of Mus musculus with 10 samples.

Results

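The Polycomb and Trithorax group genes described here are 38 genes chosen by name and matched by symbol among the 20006 genes of the deposited table. All 38 were found, all 38 passed the filter on low values, and in each of them every embryo had at least 56 reads. RNA-seq was made from 10 whole mouse embryos at embryonic day 7.5, 5 of them mutant for both Axin1 and Axin2 (labelled DKO) and 5 wild type (WT). Axin1 and Axin2 encode scaffolds of the complex that degrades β-catenin, the effector of WNT signalling, and the study compared gene expression between the genotypes. The sources used here do not state how the alleles were made, the strain, the litters or any pooling of tissue. No label says that embryos of a genotype came from separate litters, so p-values measure the spread between these embryos only. Values are scaled counts, that is reads divided by 1 size factor per embryo, given as mean ± SD over 5 embryos unless each embryo is listed. Fold changes are log2(mutant over WT) with their standard error (SE), on the log2(scaled count + 1) scale, and p-values are from limma, adjusted over 15429 genes with a threshold of 0.05.

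Polycomb proteins keep developmental genes silent through a pair of chromatin complexes, and Trithorax proteins oppose them. Polycomb repressive complex 2 (PRC2) methylates lysine 27 of histone H3 through EZH1 or EZH2. Polycomb repressive complex 1 (PRC1) ubiquitinates histone H2A through RING1 or RNF2 (RING1B), and comes in many forms set by which PCGF protein it holds. In canonical PRC1, a CBX protein reads the PRC2 mark and a PHC protein lets complexes join into larger assemblies, while variant PRC1 holds RYBP or YAF2 in place of CBX. Trithorax complexes of the COMPASS family methylate lysine 4 of histone H3 through KMT2 enzymes (MLL proteins), with a shared core of WDR5, RBBP5, ASH2L and DPY30. In the gastrulating mouse embryo these complexes are best known for setting the expression domains of Hox genes.

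The libraries held 20744547 to 28505209 reads in genes. Axin1 had 1319, 1134, 1108, 2336 and 820 scaled counts in mutants 1 to 5, against 3314, 3764, 3509, 3325 and 3843 in WT embryos 1 to 5 (log2 fold change −1.49, SE 0.21, adjusted p 0.000614). Axin2 had 349 to 603 scaled counts in mutants and 395 to 485 in WT embryos and did not pass the threshold (adjusted p 0.981). The library labelled mutant 4 stands apart: it held the highest Axin1 value among mutants, both Xist (1050 scaled counts) and Y-linked reads (1701), and a summed level of 9 trophoblast markers of 24737, against 3317 to 4782 in the other mutants and 2397 to 7105 in WT embryos. Its Foxc2, Pcdh8 and other paraxial mesoderm markers summed to 1810, against 148 to 283 in the other mutants. Y-linked genes summed to 2273 to 4740 scaled counts in mutants 1, 2 and 5 and in WT 3 and 4. They summed to at most 1.01 in mutant 3 and WT 1, 2 and 5, where Xist had 1268 to 3597. The markers of these whole embryos also differed between genotypes: 6 of 7 epiblast markers and 7 of 7 nascent and paraxial mesoderm markers fell, 3 of 6 neural ectoderm markers fell, and 3 of 6 extra-embryonic mesoderm and allantois markers rose. Of the remaining marker lists, 2 of 8 blood and endothelium, 1 of 9 visceral endoderm, 0 of 6 parietal endoderm, 0 of 9 trophoblast and 2 of 8 maternal decidua and blood markers tested rose, and none of these fell. Of 3 germ cell markers, 1 rose and 1 fell, and none of 5 sex-linked genes passed the threshold. Over all genes tested, 11.4% rose and 13.8% fell, against which these marker counts are to be read.

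Of the 38 Polycomb and Trithorax genes, 10 passed the threshold: Kdm6b, Pcgf5, Rybp and Rbbp7 rose in mutants, and Phc1, Cbx6, Cbx2, Phc2, Kmt2a and Wdr5 fell. That is 26.3% of the members, near the share over all genes tested, where 25.1% were called (11.4% higher and 13.8% lower), so the count itself does not set the group apart. Most changes were small. The median size of the log2 fold change was 0.23 over the members and 0.32 over all genes tested, and Phc1 and Cbx6 were the 2 members past a doubling or halving. These medians are of sets unlike in level. The genes tested go down to a mean of 10 scaled counts, whereas every member had at least 56 reads in every embryo. In 8 members (21.1%) the mutant and WT values did not overlap, against 17.1% of all genes tested. By complex, 1 of 11 PRC2 members, 6 of 17 PRC1 members and 3 of 10 Trithorax-type members and Kdm6b were called. In canonical PRC1, 4 of 7 CBX and PHC genes fell and none rose.

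**Figure D1:**
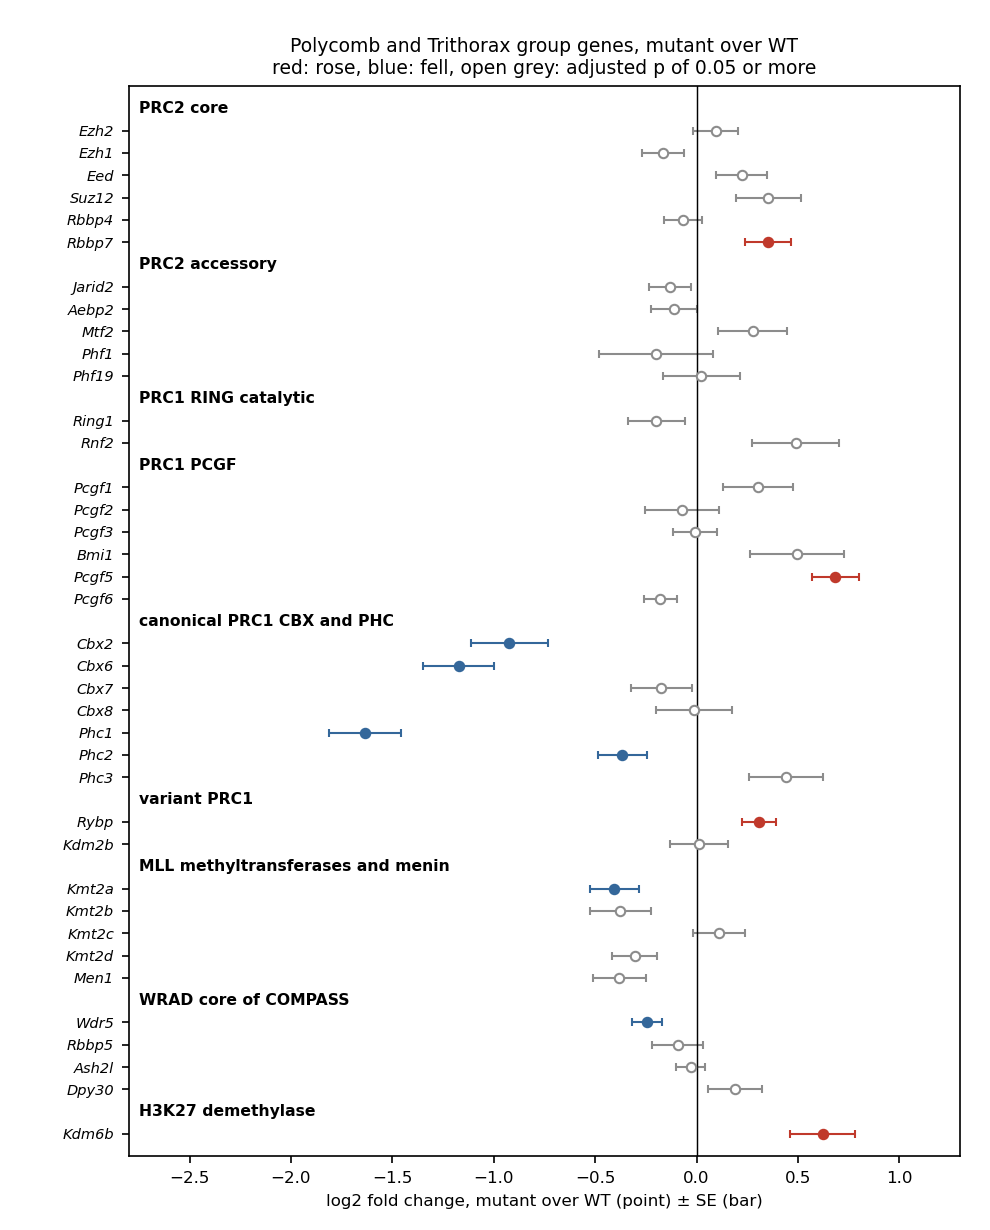
Log2 fold change (mutant over WT, horizontal axis) of the 38 members, grouped by role, with the SE as a bar; filled red points rose, filled blue points fell and open grey points did not pass the threshold. Phc1 (−1.64), Cbx6 (−1.17) and Cbx2 (−0.92) lie furthest from 0 and all belong to canonical PRC1.

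Promoter sequences are shown for the strongest changes and a contrast: Phc1 and Cbx6, which fell most, and Cbx7, close to Cbx6 on chromosome 15, which did not pass the threshold. Each runs 5′ to 3′ on the gene's strand, from 250 bases before to 50 after the annotated start (RefSeq, GRCm38.p6), with CpG dinucleotides in capitals. The windows are chr6:122340178-122340477 (minus strand) for Phc1, chr15:79834284-79834583 (minus strand) for Cbx6 and chr15:79932597-79932896 (minus strand) for Cbx7.
Phc1: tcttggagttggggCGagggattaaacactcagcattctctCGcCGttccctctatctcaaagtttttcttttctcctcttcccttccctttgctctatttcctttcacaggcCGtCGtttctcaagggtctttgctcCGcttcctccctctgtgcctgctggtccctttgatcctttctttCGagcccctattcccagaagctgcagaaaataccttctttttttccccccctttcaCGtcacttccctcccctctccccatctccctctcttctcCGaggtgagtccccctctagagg
Cbx6: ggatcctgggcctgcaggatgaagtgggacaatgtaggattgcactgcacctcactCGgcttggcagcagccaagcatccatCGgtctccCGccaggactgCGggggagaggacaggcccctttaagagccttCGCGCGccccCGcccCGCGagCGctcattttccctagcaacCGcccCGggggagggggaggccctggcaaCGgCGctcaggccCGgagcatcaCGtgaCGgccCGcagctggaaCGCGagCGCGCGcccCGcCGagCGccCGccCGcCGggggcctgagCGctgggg
Cbx7: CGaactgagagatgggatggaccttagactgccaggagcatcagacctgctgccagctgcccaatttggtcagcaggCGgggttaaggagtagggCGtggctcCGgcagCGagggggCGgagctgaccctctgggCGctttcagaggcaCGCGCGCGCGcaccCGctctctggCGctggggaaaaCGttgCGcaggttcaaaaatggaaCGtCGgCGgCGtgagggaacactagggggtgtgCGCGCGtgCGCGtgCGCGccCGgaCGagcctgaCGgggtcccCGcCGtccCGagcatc
The Cbx6 and Cbx7 windows are rich in CpG (31 and 33), as most members' windows are, whereas Phc1 has 9. Over the 48 windows of 32 members the median was 24 CpG, with a range of 1 to 56, against a median of 7 over 32851 mouse promoter windows. A TCF/LEF motif, CTTTGAT or CTTTGAA on either strand, is the sequence bound by the partners of β-catenin. It was found in 3 members' windows (6.25%), against 8.65% of all windows: CTTTGAT in Phc1, starting at position −84 from the annotated start, and matches on the other strand in Suz12 at −203 and in Kmt2d at −113. Among these 3 genes, Phc1 passed the threshold. An E2F motif, TTTGGCGC, TTTCGCGC or TTTCCCGC on either strand, the element of many S-phase genes, was found in the windows of Phf19, Ezh2 and Suz12 (6.25%), against 1.84% of all windows. In Suz12 the E2F match at −219 lies beside the TCF/LEF match without overlap. None of these 3 genes passed the threshold. Each E2F motif searched contains a CpG, and the members' windows are richer in CpG than the windows they are set against (median 24, against 7). Windows of like CpG content were not compared. A match is a description of the letters and not of a bound site.

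The members furthest from 0 were Phc1, Cbx6 and Cbx2, subunits of canonical PRC1. Phc1 (ENSMUSG00000040669.14, chr6:122317731-122340561, minus strand) encodes a Polyhomeotic protein whose SAM domain links PRC1 complexes. It had 802, 548, 650, 1159 and 949 scaled counts in mutants 1 to 5, against 2362, 2280, 2441, 2351 and 2954 in WT embryos 1 to 5. Every mutant lay below every WT embryo, the highest mutant being the library labelled mutant 4. The means were 821 ± 242 in mutants and 2478 ± 273 in WT embryos, 3.02-fold lower in mutants (log2 fold change −1.64, SE 0.18, adjusted p 0.000107). Without mutant 4 the log2 fold change was −1.77. In whole embryos, fewer cells of a type and less RNA per cell cannot be told apart. The 7 epiblast markers summed to 14014 to 17935 scaled counts in mutants and 40561 to 55420 in WT embryos, and their part in the fall of Phc1 was not tested. Within that list Fgf5 was at 0 in mutant 5, and the other 6 markers had reads in every embryo.

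The other PHC genes did not move with Phc1 to the same degree. Phc2 (ENSMUSG00000028796.17), the paralogue with the highest level here, had 4030, 3098, 3714, 4243 and 3952 scaled counts in mutants and 4470, 5769, 4125, 4495 and 5786 in WT embryos. The groups overlapped at mutant 4 and WT 3, and the fall was small (log2 fold change −0.37, SE 0.12, adjusted p 0.042). Phc2 passed the threshold in 10 of 20 alternatives. It missed it on leaving out any mutant but mutant 4 or any of WT 1, 2 and 5 (adjusted p 0.0519 to 0.114), with a term for sex (0.0616) and after correction for GC content (log2 fold change −0.10, adjusted p 0.295). Phc3, the least abundant, had 157 to 269 scaled counts in mutants and 140 to 172 in WT embryos (log2 fold change 0.44, SE 0.18, adjusted p 0.0976). It passed without mutant 4 (log2 fold change 0.54, adjusted p 0.0334), and had a log2 fold change of 0.26 after correction for GC content (adjusted p 0.31). Per kb of exon, Phc1 made up 21.6 ± 3.4% of the summed PHC level in mutants and 40.0 ± 3.5% in WT embryos. Phc2 made up 76.6 ± 3.1% in mutants and 59.2 ± 3.6% in WT embryos. The summed PHC level per kb was 706 ± 104 scaled counts in mutants and 1174 ± 141 in WT embryos, with no overlap.

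**Figure D2:**
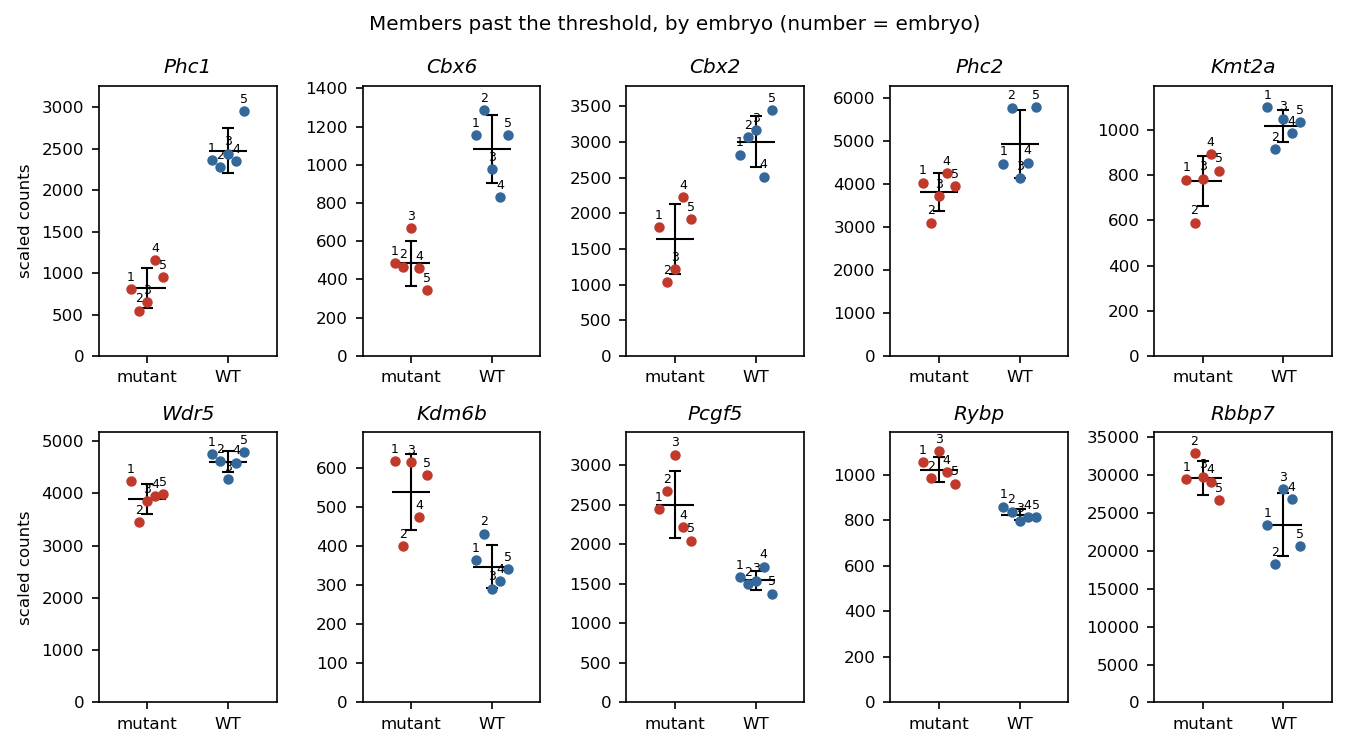
Scaled counts of the 10 members past the threshold in each embryo (points, numbered by embryo; mutants left in red, WT right in blue), with mean and SD in black and every vertical axis starting at 0. The groups do not overlap for Phc1, Cbx6, Cbx2, Kmt2a, Wdr5, Pcgf5 and Rybp, and overlap for Phc2, Kdm6b and Rbbp7.

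Cbx6 and Cbx2 fell, whereas Cbx7 and Cbx8 did not pass the threshold. Cbx6 (ENSMUSG00000089715.11, chr15:79823896-79834688, minus strand) encodes a chromodomain reader of the PRC2 mark. It had 484, 467, 668, 458 and 343 scaled counts in mutants 1 to 5, against 1156, 1285, 977, 830 and 1156 in WT embryos 1 to 5. No mutant reached the lowest WT value, and the log2 fold change was −1.17 (SE 0.17, adjusted p 0.000715). Its exons share 563 bases with Npcd on the same strand, so reads from that part cannot be assigned to Cbx6 by position alone. Cbx2 (ENSMUSG00000025577.7, chr11:119022962-119031270, plus strand) encodes the CBX protein that compacts chromatin and is needed for skeletal patterning in mice. It had 1802, 1039, 1216, 2223 and 1915 scaled counts in mutants, against 2824, 3068, 3166, 2513 and 3451 in WT embryos. The groups did not overlap, mutant 4 again lying nearest to WT (log2 fold change −0.92, SE 0.19, adjusted p 0.00484). Without mutant 4 it was −1.05.

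Cbx7, the main CBX gene of mouse embryonic stem cells, had 1341, 1317, 1087, 1658 and 1898 scaled counts in mutants and 1714, 1955, 1466, 1429 and 1570 in WT embryos. The groups overlapped, though mutants 1, 2 and 3 lay below every WT embryo (log2 fold change −0.17, SE 0.15, adjusted p 0.422). Cbx8, next to Cbx2 on chromosome 11, had 182 to 281 scaled counts in mutants and 182 to 326 in WT embryos (log2 fold change −0.01, SE 0.19, adjusted p 0.968). Per kb of exon and over the 4 CBX genes among the 38, Cbx2 was the most abundant in both genotypes, at 385 ± 116 scaled counts per kb in mutants and 706 ± 83 in WT embryos. Its share of the sum of these 4 was 52.6 ± 6.7% in mutants and 62.8 ± 3.5% in WT embryos, with overlapping values, and that of Cbx7 was 31.4 ± 4.0% in mutants and 22.4 ± 2.2% in WT embryos, with no overlap. The sum itself was 720 ± 140 scaled counts per kb in mutants and 1123 ± 116 in WT embryos. That sum did not overlap between the groups, and most of the difference in it was that of Cbx2.

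**Figure D3:**
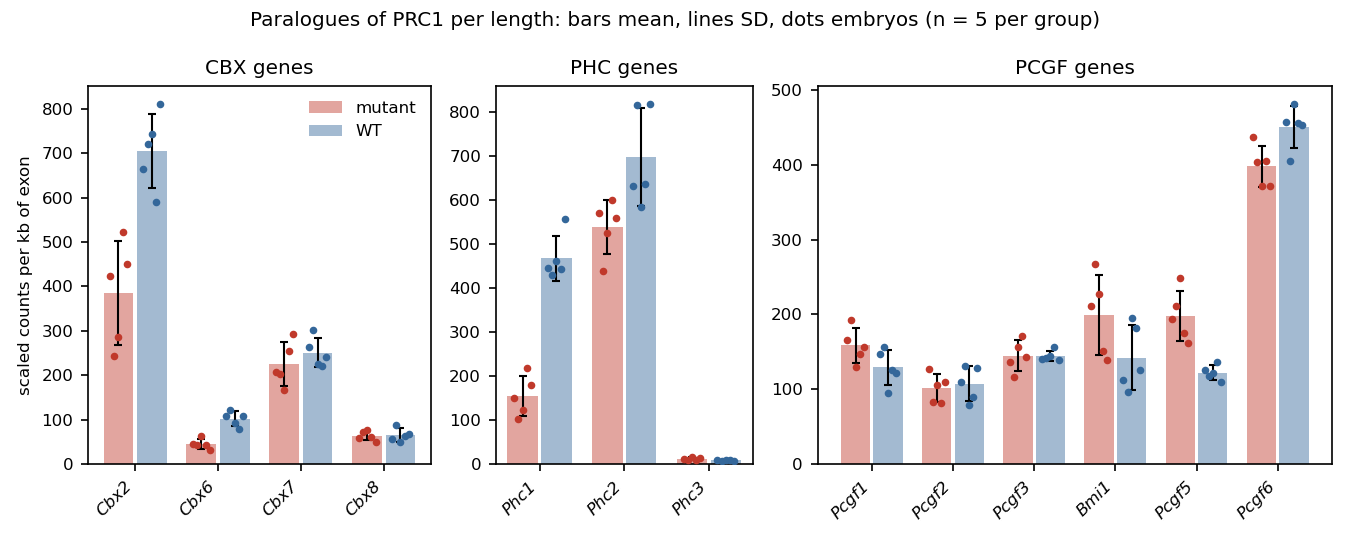
Scaled counts per kb of exon for the CBX, PHC and PCGF paralogues (bars are means, lines SD, dots the 5 embryos of each genotype; mutants left in red, WT right in blue). Cbx2 (385 per kb in mutants, 706 in WT) and Phc1 (155 in mutants, 468 in WT) show the largest differences in the first 2 families. Phc2 has a lower mean in mutants as well (539, against 698 in WT). Pcgf6 is the most abundant PCGF gene in both genotypes.

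The balance between paralogues was set out as 8 log2 ratios, computed within each embryo. These ratios were chosen by role, but with earlier results of these data known. They were compared by an exact permutation test of the genotype labels, two-sided, whose smallest p is 0.00794. The log2 ratio of Phc2 to Phc1 was 2.25 ± 0.28 in mutants and 0.98 ± 0.21 in WT embryos, a difference of 1.27. That of Cbx7 to Cbx2 was −0.14 ± 0.32 in mutants and −0.89 ± 0.22 in WT embryos, a difference of 0.75. That of Rbbp7 to Rbbp4 was 0.71 ± 0.14 in mutants and 0.29 ± 0.11 in WT embryos, a difference of 0.42. These 3 ratios were higher in every mutant than in any WT embryo, each with the smallest p the test can give (0.00794, adjusted over 8 ratios 0.0212). Within WT, the Rbbp7 to Rbbp4 ratio was 0.43 and 0.39 in WT 3 and 4, which have high Y-linked counts. It was 0.20, 0.22 and 0.22 in WT 1, 2 and 5, which do not. Mutant 3, with 0 Y-linked scaled counts, had the highest value (0.85). Rbbp7 is X-linked, and the part of sex in this ratio was not tested. The balance of the RING pair, Ring1 to Rnf2, differed by −0.69 and overlapped widely (adjusted p 0.206). Ezh1 to Ezh2 (−0.26) and Bmi1 to Pcgf2 (0.57) each had an adjusted p of 0.254, Phf19 to Mtf2 (−0.25) had 0.508 and Kmt2b to Kmt2a (0.03) had 0.738. A further pair of ratios, Cbx2 to Cbx8 (2.76 ± 0.67 in mutants, 3.67 ± 0.34 in WT embryos) and Cbx6 to Cbx7 (−1.60 ± 0.64 in mutants, −0.60 ± 0.12 in WT embryos), was looked at after the values were seen and is given without a test. Both overlapped between the genotypes.

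The RING enzymes and most PCGF genes did not pass the threshold, and Pcgf5 was the exception. Pcgf5 (ENSMUSG00000024805.15, chr19:36348309-36460970, plus strand) defines a variant PRC1 that deposits much of the H2A ubiquitin mark in embryonic stem cells. It had 2444, 2672, 3134, 2216 and 2048 scaled counts in mutants 1 to 5, against 1587, 1495, 1541, 1719 and 1377 in WT embryos 1 to 5. All mutants lay above all WT embryos (log2 fold change 0.68, SE 0.12, adjusted p 0.00167). Pcgf5 has a GC-poor transcript (40.4%), and after correction for GC content its log2 fold change was 0.37 with an adjusted p of 0.074. It passed in the other 19 alternatives. Per kb of exon it made up 16.5 ± 2.1% of the PCGF sum in mutants and 11.2 ± 0.7% in WT embryos, while Pcgf6, which marks the germline-gene-silencing form of PRC1, made up 33.2 ± 2.3% in mutants and 41.1 ± 1.9% in WT embryos. The PCGF sum itself overlapped, at 1200 ± 88 scaled counts per kb in mutants and 1095 ± 37 in WT embryos.

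The remaining PCGF genes had log2 fold changes of −0.18 (Pcgf6, adjusted p 0.129) to 0.50 (Bmi1, adjusted p 0.136), with Pcgf1 at 0.30, Pcgf3 at −0.01 and Pcgf2 at −0.07. Bmi1, a PCGF of canonical PRC1, had 842, 1063, 902, 600 and 552 scaled counts in mutants and 446, 382, 777, 722 and 498 in WT embryos. Mutants 1 to 3 and WT 3 and 4 formed the high side. Rnf2, the main H2A ubiquitin ligase of the early mouse embryo, showed the same kind of spread, with 3935, 4191, 3388, 3058 and 2745 scaled counts in mutants and 2305, 1529, 3753, 3147 and 2076 in WT embryos (log2 fold change 0.49, SE 0.21, adjusted p 0.115). Its paralogue Ring1 had 399 to 567 scaled counts in mutants and 466 to 651 in WT embryos (log2 fold change −0.20, adjusted p 0.331). Rnf2 passed the threshold without WT 3 (log2 fold change 0.64, adjusted p 0.0309), and had a log2 fold change of 0.07 after correction for GC content (adjusted p 0.531). That of Bmi1 was then 0.19 (adjusted p 0.366).

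Of the variant PRC1 subunits, Rybp rose and Kdm2b did not pass the threshold. Rybp (ENSMUSG00000072872.3), which stimulates the ligase in PRC1 forms without CBX, had 1053, 984, 1102, 1010 and 960 scaled counts in mutants and 859, 837, 797, 813 and 813 in WT embryos. The difference was small but the WT embryos were close together, and the groups did not overlap (log2 fold change 0.31, SE 0.08, adjusted p 0.0199). The call was lost without mutant 3 (adjusted p 0.0521) or WT 5 (0.0511) and after correction for GC content (log2 fold change 0.13, adjusted p 0.395). Kdm2b, which brings variant PRC1 to unmethylated CpG islands, had 1144 to 1933 scaled counts in mutants and 1348 to 1816 in WT embryos (log2 fold change 0.01, SE 0.14, adjusted p 0.968). Yaf2, the paralogue of Rybp and not among the 38, rose as well (log2 fold change 0.63, SE 0.10, adjusted p 0.00113).

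In PRC2, Rbbp7 alone of 11 members was called. The enzyme gene Ezh2 had 2992 to 3418 scaled counts in mutants and 2291 to 3482 in WT embryos (log2 fold change 0.09, SE 0.11, adjusted p 0.563), and its less active paralogue Ezh1 had 686 to 869 in mutants and 823 to 973 in WT embryos (log2 fold change −0.17, SE 0.10, adjusted p 0.256). Eed, which binds the PRC2 mark, and Suz12, the scaffold, had log2 fold changes of 0.22 (SE 0.13, adjusted p 0.215) and 0.35 (SE 0.16, adjusted p 0.127). Suz12 passed without WT 3 (log2 fold change 0.49, adjusted p 0.0178), and had a log2 fold change of 0.12 after correction for GC content (adjusted p 0.325). Rbbp7 (ENSMUSG00000031353.13, X chromosome) encodes a histone chaperone shared with other chromatin complexes, and had by far the highest level per kb of the 38. It had 29477, 32863, 29780, 29116 and 26655 scaled counts in mutants, against 23367, 18243, 28091, 26850 and 20574 in WT embryos. WT 3 and 4, the WT embryos with high Y-linked counts, lay within the range of the mutants, and WT 1, 2 and 5 lay below it (log2 fold change 0.35, SE 0.12, adjusted p 0.0423). With a term for sex and without mutant 4 the log2 fold change was 0.27 (adjusted p 0.105), and edgeR gave an adjusted p of 0.0523. Leaving out any mutant but mutant 5 or any of WT 1, 2 and 5 also ended the call (adjusted p 0.0511 to 0.112). Its autosomal paralogue Rbbp4 had 16552 to 19185 scaled counts in mutants and 15623 to 20893 in WT embryos (log2 fold change −0.07, adjusted p 0.631).

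None of the 5 PRC2 accessory genes passed the threshold. Jarid2, which can recruit PRC2, had 2731 to 3672 scaled counts in mutants and 3082 to 3898 in WT embryos (log2 fold change −0.13, SE 0.10, adjusted p 0.375). Aebp2, its partner in the same PRC2 form, had 1010 to 1337 in mutants and 1088 to 1528 in WT embryos (log2 fold change −0.11, adjusted p 0.51). The Polycomb-like genes, which guide PRC2 to CpG islands, differed in level: Mtf2 had 2547 ± 325 scaled counts in mutants and 2149 ± 568 in WT embryos, Phf19 had 344 ± 94 in mutants and 331 ± 50 in WT embryos, and Phf1 had 85 ± 37 in mutants and 93 ± 21 in WT embryos. Their adjusted p-values were 0.254, 0.946 and 0.64.

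Among the Trithorax genes the changes were small falls. Kmt2a (MLL1, ENSMUSG00000002028.12, chr9:44803355-44881296, minus strand), which maintains Hox expression in mice, had 780, 591, 785, 894 and 821 scaled counts in mutants, against 1103, 917, 1050, 988 and 1034 in WT embryos. The groups did not overlap, though mutant 4 lay just below WT 2 (log2 fold change −0.41, SE 0.12, adjusted p 0.0265). The call was lost without mutant 1 (adjusted p 0.0504), WT 1 (0.0628) or WT 5 (0.0631). Kmt2b (log2 fold change −0.38, SE 0.15, adjusted p 0.0884), Kmt2d (−0.31, SE 0.11, adjusted p 0.0636) and Men1 (−0.38, SE 0.13, adjusted p 0.0514), which encodes the menin cofactor of MLL1 and MLL2, lay near the threshold. Each of these 3 passed without mutant 4 (adjusted p 0.0338, 0.0469 and 0.0254). After correction for GC content their log2 fold changes were −0.16 for Kmt2b, −0.09 for Kmt2d and −0.17 for Men1 (adjusted p 0.321, 0.484 and 0.183). The mutant values of Kmt2d, 1599 to 2386 scaled counts, all lay below the WT values, 2445 to 2897. Kmt2c had 654 to 800 scaled counts in mutants and 547 to 872 in WT embryos (log2 fold change 0.11, SE 0.13, adjusted p 0.565). Per kb of exon, the summed KMT2 level was 253 ± 36 scaled counts in mutants and 307 ± 15 in WT embryos, and Kmt2d was the most abundant of the 4 in both.

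Of the shared COMPASS core, Wdr5 fell by a small amount. Wdr5 (ENSMUSG00000026917.15) encodes the adaptor that presents histone H3 to the complex, and had 4232, 3446, 3850, 3950 and 3984 scaled counts in mutants, against 4747, 4619, 4273, 4588 and 4781 in WT embryos. The highest mutant, mutant 1, lay just below the lowest WT embryo, WT 3 (log2 fold change −0.24, SE 0.08, adjusted p 0.0333). It passed in 11 of 20 alternatives, and was lost without any of mutants 2, 3 and 5 or WT 1, 4 and 5 (adjusted p 0.0525 to 0.0866), with a term for sex (0.0696) and after correction for GC content (0.0547). The other core subunits lay close to 0. Rbbp5 had 1044 to 1586 scaled counts in mutants and 1327 to 1622 in WT embryos, Ash2l had 6041 to 6889 in mutants and 6226 to 7223 in WT embryos, and Dpy30 had 2116 to 3294 in mutants and 1974 to 2924 in WT embryos. Rbbp5, Ash2l and Dpy30 had log2 fold changes of −0.09, −0.03 and 0.19 with adjusted p-values of 0.622, 0.793 and 0.318.

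Kdm6b (ENSMUSG00000018476.7, chr11:69398508-69413675, minus strand), which encodes the JMJD3 demethylase that removes the PRC2 mark, rose. It had 618, 400, 616, 475 and 583 scaled counts in mutants 1 to 5, against 364, 433, 292, 310 and 341 in WT embryos 1 to 5. Mutant 2 lay below WT 2, and the other mutants lay above all WT embryos (538 ± 97 in mutants and 348 ± 55 in WT embryos; log2 fold change 0.62, SE 0.16, adjusted p 0.0149). It passed in all 20 alternatives, as did Phc1, Cbx6 and Cbx2 and no other member. The kit is not stated to record strand, and 286 bases of its exons overlap the antisense gene Kdm6bos, so reads from that part cannot be assigned to a strand. An opposite-strand exon overlap was present for 14 of the 38 members. Kdm6a, its X-linked relative and not among the 38, had 1020 ± 80 scaled counts in mutants and 1114 ± 192 in WT embryos (log2 fold change −0.11).

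Over all genes tested, and not only the 38, embryos differed along the GC content of the transcripts. An index was the median log2 deviation of the 3771 tested genes below 45% GC minus that of the 3612 above 55% GC. It was 0.21, 0.47, 0.24, 0.15 and 0.05 in mutants 1 to 5 and −0.26, −0.82, 0.33, 0.13 and −0.45 in WT embryos 1 to 5. WT 1, 2 and 5, the WT embryos with at most 1.01 Y-linked scaled counts, had the negative values, so sex and GC index cannot be told apart within WT. Of the 14 members below 45% GC, 9 had WT 3 and 4 both above WT 1, 2 and 5 and 0 had them below, against 60.7% and 2.39% of all genes below 45% GC. Of the 9 members above 55% GC, 0 had WT 3 and 4 above and 3 had them below, against 1.25% and 41.0% of all such genes. By sign, of the 14 GC-poor members 10 had a positive log2 fold change, and of the 9 GC-rich members 8 had a negative one, Kdm6b being the exception. All tested genes of these classes leaned the same way, with a median log2 fold change of 0.26 for GC-poor and −0.18 for GC-rich genes. By the test, 3 of the 14 GC-poor members rose and 0 fell, against 19.04% and 5.06% of all GC-poor genes. Of the 9 GC-rich members 1 rose and 2 fell, against 5.07% and 22.5% of all GC-rich genes. The part of GC content or sex in these differences was not tested, beyond the fits that follow.

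**Figure D4:**
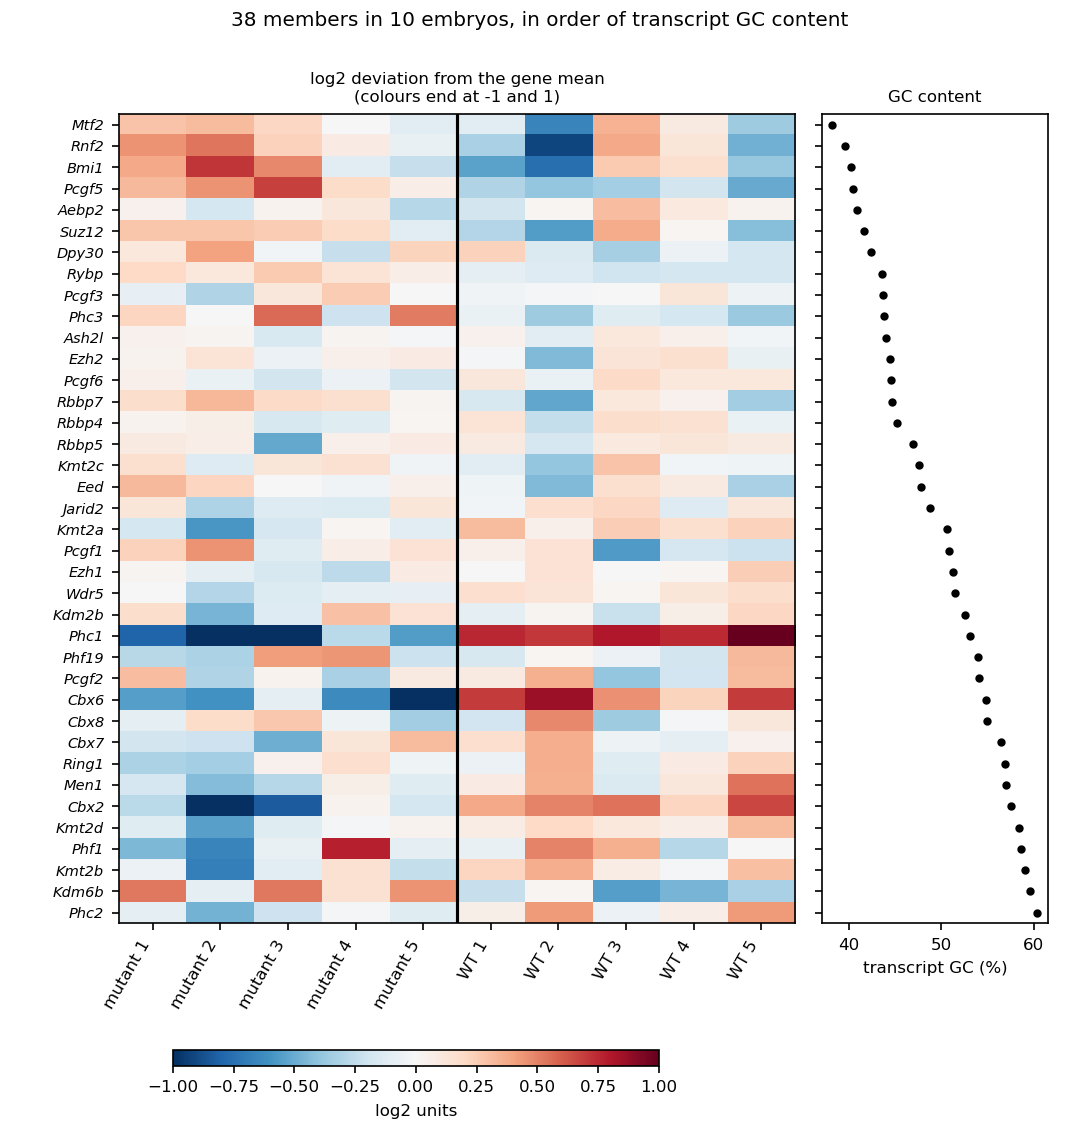
Log2 deviation of each member from its mean over the 10 embryos (rows, sorted by transcript GC content from low at the top to high at the bottom; mutants left, WT right; colours end at −1 and 1), with the GC percentage beside it. Mtf2, Rnf2, Bmi1 and Suz12 share a pattern in which WT 2 (index −0.82) is low and WT 3 (index 0.33) is high, whereas Phc1 and Cbx6 split by genotype.

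A correction that removed each embryo's median deviation in 20 bins of GC content, added after the data were seen, called 9 members (27.7% of all genes were called in that fit). Of these 9, 6 were among the 10 called without it: Phc1 (log2 fold change −1.54), Cbx6 (−1.02), Cbx2 (−0.71), Kmt2a (−0.35), Kdm6b (0.83) and Rbbp7 (0.23). Pcgf5, Rybp, Phc2 and Wdr5 no longer passed, and Aebp2 (−0.42, adjusted p 0.038), Pcgf6 (−0.30, adjusted p 0.00785) and Ash2l (−0.21, adjusted p 0.0423) passed. The correction also removes any difference between genotypes that runs along GC content. Leaving out the library labelled mutant 4 called 13 members (29.6% of all genes in that fit), 9 of them among the 10, with Phc3, Kmt2b, Kmt2d and Men1 added and Rbbp7 lost (adjusted p 0.0511). A term for sex, again without mutant 4, called 8 members (27.8% of all genes in that fit), 7 of them among the 10.

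**Figure D5:**
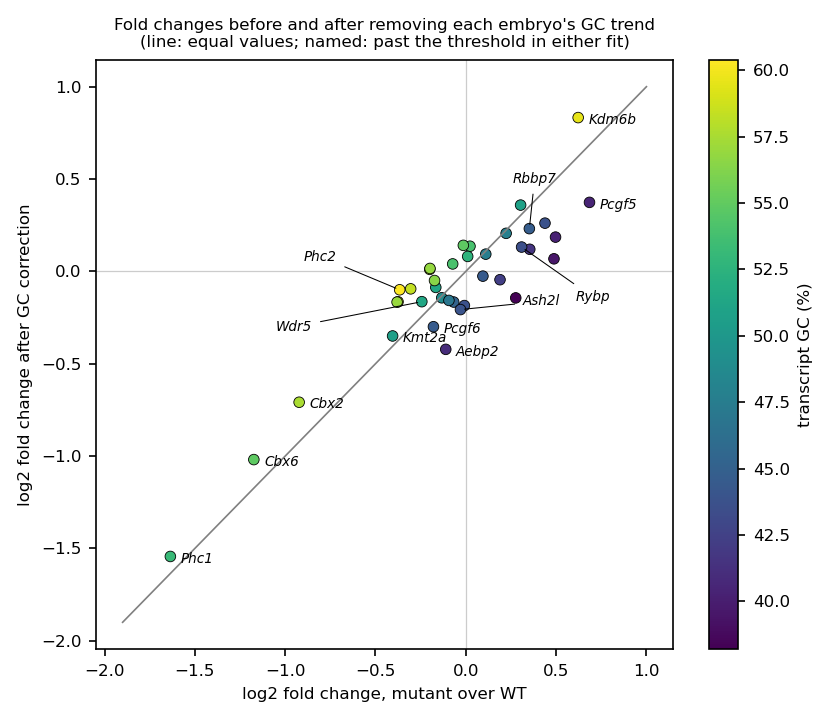
Log2 fold change of the 38 members (mutant over WT) in the fit as described (horizontal axis) and after the GC correction (vertical axis), coloured by transcript GC content; the line marks equal values and names mark members past the threshold in either fit. Phc1, Cbx6, Cbx2 and Kdm6b keep values far from 0, and GC-poor genes such as Pcgf5 (0.68 before, 0.37 after) lie below the line.

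The levels of the members ranged widely. Per kb of exon, Rbbp7 was highest in both genotypes, at 10168 ± 761 scaled counts per kb in mutants and 8053 ± 1423 in WT embryos, followed by Dpy30 (2343 ± 391 in mutants, 2049 ± 310 in WT) and Rbbp4 (2065 ± 139 in mutants, 2173 ± 261 in WT). Phc3 was lowest, at 12.3 ± 2.8 in mutants and 8.90 ± 0.84 in WT embryos. Dpy30 and Rbbp4 did not differ beyond their spread in either genotype. By rank among the 38, Phc1 stood at 22 in mutants and 11 in WT embryos, and Cbx2 at 14 in mutants and 7 in WT embryos. Of the EZH sum per kb, Ezh2 made up 82.2 ± 1.4% in mutants and 79.2 ± 3.7% in WT embryos, and of the RING sum, Rnf2 made up 84.7 ± 3.9% in mutants and 77.1 ± 8.4% in WT embryos.

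Other genes of these complexes, from lists of named subunits, showed 25 of 69 tested genes past the threshold, 5 higher and 20 lower. Over all genes tested the shares were 25.1% called, 11.4% higher and 13.8% lower, against which this and the counts per list that follow are to be read. Of 19 further PRC1 and PRC2 subunits, 3 rose and 3 fell (median log2 fold change 0.06). The highest was Scmh1, a PRC1-associated gene, with 1089 ± 383 scaled counts in mutants and 427 ± 58 in WT embryos (log2 fold change 1.28, SE 0.23, adjusted p 0.0022); Yaf2 and Lcor (0.80, adjusted p 0.011) rose and Bcorl1 (−0.88, adjusted p 0.0129), Auts2 (−0.57, adjusted p 0.015) and Fbrsl1 (−0.42, adjusted p 0.0387) fell. Of 11 genes of the PR-DUB complex, which removes the PRC1 mark, none rose and 2 fell, Asxl1 (−0.64, adjusted p 0.00177) and Hcfc1 (−0.54, adjusted p 0.00927), with a median of −0.17. Of 12 further COMPASS-type genes tested, Kdm6a among them, Hcfc2 rose (0.82, adjusted p 0.00335) and Cxxc1 (−0.62, adjusted p 0.00465), Paxip1 (−0.39, adjusted p 0.00996) and Hcfc1, which stands in both lists, fell (median −0.25). Of 4 demethylases of lysine 4 of histone H3, 3 fell, namely Kdm5b (−0.53, adjusted p 0.00299), Kdm5c (−0.61, adjusted p 0.0188) and Kdm1a (−0.28, adjusted p 0.0215), and Kdm5a had a log2 fold change of 0.29 (adjusted p 0.0905). After correction for GC content, Fbrsl1 (log2 fold change −0.16, adjusted p 0.207) and Kdm1a (−0.20, adjusted p 0.057) no longer passed. The other called genes named in this paragraph still passed.

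The BAF and PBAF remodellers, Trithorax-type complexes that move nucleosomes and oppose Polycomb, had 10 of 24 genes lower and 1 higher, with a median log2 fold change of −0.21 against 0.01 over all genes tested. Dpf1, a subunit known from neurons, had 91 ± 40 scaled counts in mutants and 297 ± 86 in WT embryos (log2 fold change −1.74, SE 0.28, adjusted p 0.00124). Smarcd3 had the lowest log2 fold change of the list (−1.80, adjusted p 0.00979). Smarcd1 (−0.57, adjusted p 0.00285) and Bcl7a (−0.61, adjusted p 0.00204) fell less, and Brd7 of the PBAF form rose (0.62, adjusted p 0.00147). After correction for GC content, Smarcd2, Arid1a and Smarca4 no longer passed (adjusted p 0.467, 0.111 and 0.0631). The other genes of the list that fell still passed. Among genes under Polycomb control, 24 of 32 Hox genes tested rose and Hoxb1 fell (median log2 fold change 2.81). Hoxa11 had 672 ± 313 scaled counts in mutants and 32.5 ± 6.4 in WT embryos (adjusted p 4.70e-06), and Hoxd11 had 342 ± 118 in mutants and 12.7 ± 5.9 in WT embryos (adjusted p 5.13e-06). The Ink4 genes, classical targets of Bmi1, did not pass: Cdkn2a had 13.97 ± 6.17 scaled counts in mutants and 15.5 ± 6.7 in WT embryos, and Cdkn2b had 50.7 ± 15.1 in mutants and 44.9 ± 16.9 in WT embryos. Of 13 genes of S phase and proliferation, 6 fell and 1, Ccne2, rose. No histone mark was measured here.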

How the data were processed

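RNA-seq was made from 10 whole embryos (5 mutant, 5 WT). Per the labels' protocols, 1.9 to 2 ng of total RNA (RNA integrity numbers 9.7 to 10) was amplified with SMART-Seq v4 for 12 cycles. No molecular identifiers are mentioned, so counts are reads, not molecules. Per the submitters' processing notes, cutadapt 1.6, STAR 2.5.0a, HTSeq 0.5.3, DESeq (no version) and the build mm10 were used. The deposited values are a signal: reads per gene, scaled by the authors with a size factor for each library. Whole reads could be recovered for 200060 of 200060 values (100%, within 0.01 reads), and edgeR on those reads called 3596 genes.

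The scaled counts were compared with limma 3.58.1 (R 4.3.3, intensity trend) after log2(value + 1), over 15429 genes with a mean of at least 10, with Benjamini-Hochberg adjustment and no covariate. Only the limma fit was run on simulated counts, which held no GC trend and no difference by sex. The ratio test and the alternatives below were not run on simulated counts. Alternatives were edgeR 4.0.16, DESeq2 1.42.0, TMM scaling, pseudocounts of 0.5 and 5, no filter, a mean of at least 50, replicate number as a block and leaving out each embryo; the GC correction and the sex term were added after the data were seen. For the GC correction, the median deviation in each of 20 bins was subtracted per embryo. Exon length, GC content (15390 of 15429 genes) and coordinates come from GENCODE release M21 (GRCm38, equal to mm10), promoters from RefSeq. All 38 members matched by gene ID, 27 with the same ID version.

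The members, the ratios, the 8 lists of other genes and the 11 marker lists were chosen with earlier results of these data known. All members are named. Of each other list, at most 4 called genes with the smallest adjusted p were eligible, or all of a list of 5 or fewer. Auts2, Fbrsl1, Hoxb1 and Ccne2 (counts of 5 or fewer) and Kdm6a (by its role) were named after their values were seen. So were Smarcd3 (by its fold change) and Smarca4, Smarcd2 and Arid1a (by the GC correction).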

Additional observations from a re-analysis of the deposited data

Results flagged for a closer look

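In 92 groups of 5 embryos (each member and ratio in each genotype), 5 held an embryo whose gap to its nearest neighbour was more than 0.71 of the group's range; chance gives about 1 in 20. Suz12 had 2294 scaled counts in mutant 5, against 2815 to 3005 in the other mutants. Rbbp5 had 1044 in mutant 3, against 1545 to 1586 in the other mutants, and 1327 in WT 2, against 1589 to 1622 in the other WT embryos. Pcgf3 had 1496 in WT 4, against 1328 to 1373 in the other WT embryos. Phc1 had 2954 in WT 5, against 2280 to 2441 in the other WT embryos. Of these genes, Phc1 passed the threshold for genotype, and it did so without WT 5 as well. The causes were not tested.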

How the results depend on the processing

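The direction of the 10 called members was kept under all 20 alternatives. Of 760 member values under alternatives, 676 kept direction and side of the threshold, 37 lost the call, 15 gained it and 32, in 12 members, none of them among the 10, changed sign. The members called numbered 5 (without WT 5) to 13 (without mutant 4, and without WT 3) on leaving out 1 embryo, with 6 without WT 1 or mutant 3; all genes called numbered 2481 (without WT 5) to 4544 (without mutant 4). The replicate numbers did not pair the embryos: correlations of same-numbered deviations ran from −0.079 to 0.079, and 1 of 5 pairs matched best. With the replicate number as a block, 6 members were called (2 higher, 4 lower; Phc2, Rybp, Rbbp7 and Wdr5 were lost), beside 3253 of all genes, and the paralogue ratios 0.42, 0.75 and 1.27 had an adjusted p of 0.167, in a test that cannot go below 0.0625 unadjusted. The values that changed sign follow. With the GC correction they were Ezh2 −0.026, Mtf2 −0.14 (0.28 without it), Phf1 0.011, Ring1 0.016, Pcgf2 0.040, Cbx8 0.14, Dpy30 −0.045, Axin2 0.11 and Phf19/Mtf2 0.28 (−0.25 without it), and Kmt2b/Kmt2a was 0.19 and passed (adjusted p 0.0317). With the sex term they were Pcgf2 0.12, Cbx8 0.11, Kdm2b −0.046 and Axin2 0.035; with edgeR, Pcgf3 0.00061 and Axin2 0.020; with DESeq2, Pcgf3 0.0043 and Axin2 0.024. On leaving out 1 embryo the ranges were Ezh2 −0.0046 to 0.15, Phf19 −0.085 to 0.11, Pcgf2 −0.18 to 0.0076, Pcgf3 −0.072 to 0.067, Cbx8 −0.10 to 0.11, Kdm2b −0.062 to 0.13, Rbbp5 −0.15 to 0.024, Ash2l −0.060 to 0.0042, Axin2 −0.12 to 0.073 and Kmt2b/Kmt2a −0.011 to 0.11. The causes were not tested. Every member had at least 56 reads in every embryo; fits at lower depth were not run.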

Other observations

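The genes next to the strongest members were looked at after the values were seen, and carry no test beyond the fit across all genes, in which 25.1% of genes were called, 11.4% higher and 13.8% lower. Within 500 kb of Phc1 on chromosome 6, 11 genes were tested, of which 4 fell and 0 rose. They are Nanog (57.3 ± 38.8 scaled counts in mutants, 338 ± 53 in WT embryos), a pluripotency factor, Rimklb (134 ± 47 in mutants, 392.2 ± 99.5 in WT embryos), Dppa3 (5.16 ± 4.03 in mutants, 21.2 ± 4.5 in WT embryos), a germ cell marker, and Gdf3 (2.11 ± 2.61 in mutants, 22.5 ± 8.7 in WT embryos), a NODAL-related ligand whose mean in mutants is under the level of 3 reads (2.51 to 3.41 scaled counts). The nearest gene, M6pr, had 6269 ± 625 scaled counts in mutants and 5302 ± 376 in WT embryos and did not pass (adjusted p 0.0623). Within 500 kb of Cbx2, 3 of 12 genes fell and 0 rose, and its neighbour Cbx8 did not pass. Within 500 kb of Cbx6, 4 of 26 fell and 3 rose. Apobec3, between Cbx6 and Cbx7, had 254 ± 39 scaled counts in mutants and 608 ± 40 in WT embryos (log2 fold change −1.27, adjusted p 7.8e-05), and 100 bases of its exons overlap those of Cbx7 on the opposite strand. Within 500 kb of Kdm6b, 12 of 49 genes fell and 4 rose.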
